A study of Mus musculus with 4 samples.

Results

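The genes examined are 10 that encode receptors typical of natural killer (NK) cells and the adaptor proteins these receptors signal through: Ncr1, Klrk1, Klrd1, Klrg1, Cd226, Cd96, Tigit, Fcer1g, Tyrobp and Hcst. They were taken by symbol from a count table of 24343 genes, and all 10 were found in it. The table comes from RNA-seq of group 3 innate lymphoid cells (ILC3s) of mice, tissue lymphocytes that lack antigen receptors and are a main source of IL-22. The cells were lineage-negative, CD127-positive and GFP-positive, sorted from IL23R-GFP/WT animals, which carry 1 reporter copy and 1 wild-type copy of the IL-23 receptor locus; all 4 libraries share this genotype. A pair of libraries came from cells kept in medium and a pair from cells stimulated with TL1A, a TNF superfamily cytokine; the labels give no dose, time, age or sex. The libraries not marked as stimulated were taken as medium. Nothing says whether libraries of a group came from separate animals or cultures, so p-values reflect only how far these libraries differ, and that difference may be technical.

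Activating receptors of this kind have short tails and signal through partner chains. NKp46, the Ncr1 product, pairs with the Fc receptor gamma chain (Fcer1g) or the CD3 zeta chain (Cd247), and NKG2D, the Klrk1 product, pairs with DAP10 (Hcst) and, in mice, also with DAP12 (Tyrobp). Fcer1g and Tyrobp carry activation motifs that recruit Syk-family kinases, whereas Hcst recruits phosphoinositide 3-kinase. Inhibitory members such as KLRG1 and TIGIT instead recruit phosphatases. NKp46 marks a subset of ILC3s in the gut, and DNAM-1 (Cd226), CD96 and TIGIT share the ligand CD155, encoded by Pvr.

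Assigned reads numbered 11495636 and 12222552 in the medium libraries against 11849977 and 12605164 in the TL1A libraries. The sorted population held RNA of its sorting markers: Il7r, which encodes CD127, had 3606 ± 77.2 CPM (read counts scaled to library size; SD, n = 2) in medium and Il23r had 1001 ± 7.93. Across all 9852 genes with enough reads to test, stimulation left 2027 higher and 2141 lower (edgeR's quasi-likelihood test, threshold 0.05 on the Benjamini-Hochberg adjusted p), against 1310 and 3475 when libraries were scaled by assigned reads alone. That scaling moved the median log2 fold change of all genes by -0.26.

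TL1A-stimulated ILC3s had far more Ncr1 RNA and more Klrg1 RNA, and less Fcer1g, Cd96, Tigit and Klrk1 RNA. Of the 10 genes, 9 had enough reads to test. Of these, 2 rose, where 20.6% of all tested genes rose, 4 fell, where 21.7% fell, and 3 did not pass. Together 6 of 9 passed, against 42.3% of all tested genes. With scaling by assigned reads alone, 2 rose and 7 fell. The median log2 fold change of the 9 was -0.72, beside -0.03 for all genes tested. The libraries of the groups did not overlap in CPM for any of the 9, which was also so for 72.2% of all tested genes. In bulk RNA, fewer cells of a type and less RNA per cell cannot be told apart.

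**Figure D1:**
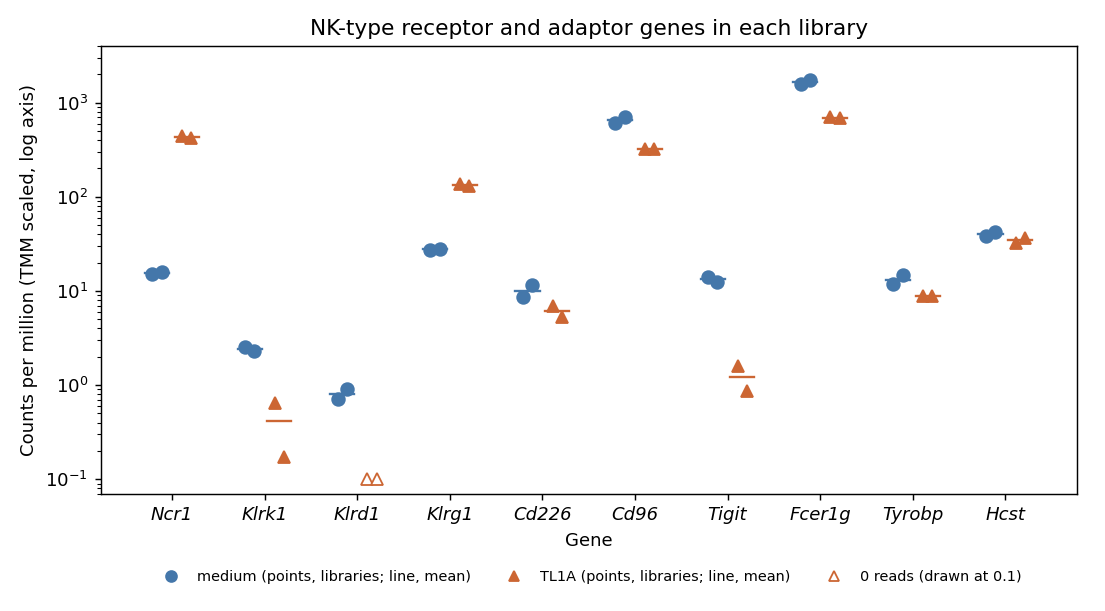
CPM (log axis) of the 10 genes in each library, with circles for medium, triangles for TL1A and short lines for group means. Ncr1 climbs from 15.5 to 431.7 CPM on average, Fcer1g is the most abundant of the genes in both groups, and Klrd1 has 0 reads with TL1A.

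Among the activating receptors, Ncr1 had the largest rise. It had 188 and 214 reads in the medium libraries and 4747 and 4893 with TL1A, or 15.0 and 16.0 CPM against 441.5 and 421.9 CPM. The libraries of each group lay close together and the groups were far apart. The rise was 27.8-fold (log2 fold change 4.80, SE 0.09, edgeR adjusted p = 1.29e-07), which ranked 92 among the tested genes by log2 fold change. By mean CPM, Ncr1 moved from rank 5786 of the tested genes in medium to rank 451 with TL1A, without correction for transcript length. The tested genes closest to Ncr1 in log2 CPM over the 4 libraries were Gadd45b, a stress-response gene, Tnfsf11, which encodes RANKL, and Cd74, the MHC class II invariant chain gene. Their log2 fold changes were 4.57, 4.60 and 4.26, and their levels with TL1A were 382.4 ± 12.0, 343.9 ± 14.7 and 442.7 ± 36.0 CPM (SD, n = 2). As these genes were picked for closeness to Ncr1 in the same libraries, the likeness of these values follows from the choice.

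Klrk1, the gene of the stress-ligand receptor NKG2D, was counted on few reads, 32 and 31 in medium against 7 and 2 with TL1A. Its CPM was 2.55 and 2.32 in medium against 0.651 and 0.172 with TL1A, so both TL1A libraries lay under both medium libraries. The log2 fold change was -2.56 (SE 0.61, edgeR adjusted p = 0.0128). Single libraries moved it: leaving out TL1A replicate 1 gave a log2 fold change of -3.74, and leaving out TL1A replicate 2 gave -1.88 with an adjusted p of 0.0715; leaving out medium replicate 1 gave an adjusted p of 0.0516. Klrk1 has 3 deposited transcript rows, and reads in exons shared by rows were not assigned. In the GENCODE M21 models, 236 of the 1270 bases of the transcript that held nearly all its reads, NM_033078, lay in no other row, so these values do not measure the whole gene. Klrd1 encodes CD94, which pairs with NKG2 chains into activating or inhibitory receptors. It had 9 and 12 reads in medium against 0 and 0 with TL1A, too few for the test. Its 0.810 CPM over both medium libraries was 6.04-fold the upper limit of 3 counts over both TL1A libraries (0.134 CPM). This ratio leaves out the counting error of the 21 medium reads, so it is not a lower bound on the change. Klrd1 passed when no low-count filter was applied (edgeR adjusted p = 0.0121). The genes of its NKG2 partners, Klrc1, Klrc2 and Klrc3, had 0 reads in every library, though Klrc1 and Klrc2 have 3 and 2 deposited rows, and a read that fits several rows was not assigned.

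Klrg1, which encodes an inhibitory receptor for cadherins, moved the same way as Ncr1. It had 344 and 372 reads in medium against 1486 and 1522 with TL1A, or 27.4 and 27.9 CPM against 138.2 and 131.2 CPM. The groups stood well apart, with a 4.87-fold rise (log2 fold change 2.29, SE 0.10, edgeR adjusted p = 3.79e-06). Among the genes of its ligands, Cdh1 had 5 and 7 reads in medium against 1 and 0 with TL1A, and Cdh2 had 18 and 13 against 9 and 19.

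The genes of the 3 receptors for CD155 all had lower values with TL1A, and 2 of them passed the test. Tigit, which encodes an inhibitory receptor, had 176 and 168 reads in medium against 17 and 10 with TL1A, or 14.0 and 12.6 CPM against 1.58 and 0.862 CPM. Every TL1A value was far under the medium values, and Tigit was 10.9-fold lower (log2 fold change -3.44, SE 0.32, edgeR adjusted p = 0.000144). Cd96 was the most abundant receptor gene of the set in medium, with 607.6 and 703.9 CPM, and had 325.1 and 322.1 CPM with TL1A. It was 2.03-fold lower (log2 fold change -1.02, SE 0.08, edgeR adjusted p = 7.93e-05). Cd226, which encodes the activating receptor DNAM-1, had 109 and 154 reads in medium against 75 and 62 with TL1A. Its groups did not overlap but the test was not passed (log2 fold change -0.72, 95% interval -1.33 to -0.11, edgeR adjusted p = 0.0613). Cd226 passed without medium replicate 1 (0.0399), with no low-count filter (0.0406) and with scaling by assigned reads alone (0.0178). All of its reads fell on NM_178687, in which 1248 of 2487 bases lay in no other row. On the ligand side, Pvr itself was higher, from 31.8 and 38.1 CPM in medium to 89.1 and 75.4 CPM with TL1A (log2 fold change 1.24, SE 0.14, edgeR adjusted p = 0.000433). Nectin2, another ligand gene of the family, had 2 and 1 reads in medium against 0 and 0 with TL1A.

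The adaptor genes differed widely in abundance, and only Fcer1g passed the test. Fcer1g, shared by NKp46, Fc receptors and the IgE receptor, had 19595 and 22960 reads in medium against 7554 and 7868 with TL1A. In CPM this was 1560 and 1720 against 702.6 and 678.4, with every TL1A library well under the medium libraries. It was 2.38-fold lower (log2 fold change -1.25, SE 0.07, edgeR adjusted p = 1.04e-05), which placed it at rank 37 by mean CPM in medium and rank 235 with TL1A. Tyrobp had 148 and 195 reads in medium against 94 and 103 with TL1A, or 11.8 and 14.6 CPM against 8.74 and 8.88 CPM. Its libraries did not overlap, but it did not pass (log2 fold change -0.58, 95% interval -1.07 to -0.10, edgeR adjusted p = 0.0567), except without medium replicate 1 (0.0456) or with scaling by assigned reads alone (0.0129). Hcst had 38.5 and 42.4 CPM in medium and 32.6 and 36.6 CPM with TL1A. Its log2 fold change was -0.23 (95% interval -0.55 to 0.09, edgeR adjusted p = 0.224), and it passed only with scaling by assigned reads alone (0.0232). Cd247, the other partner chain of NKp46, has 5 deposited rows and was barely counted, with 15 and 20 reads in medium against 13 and 4 with TL1A.

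**Figure D2:**
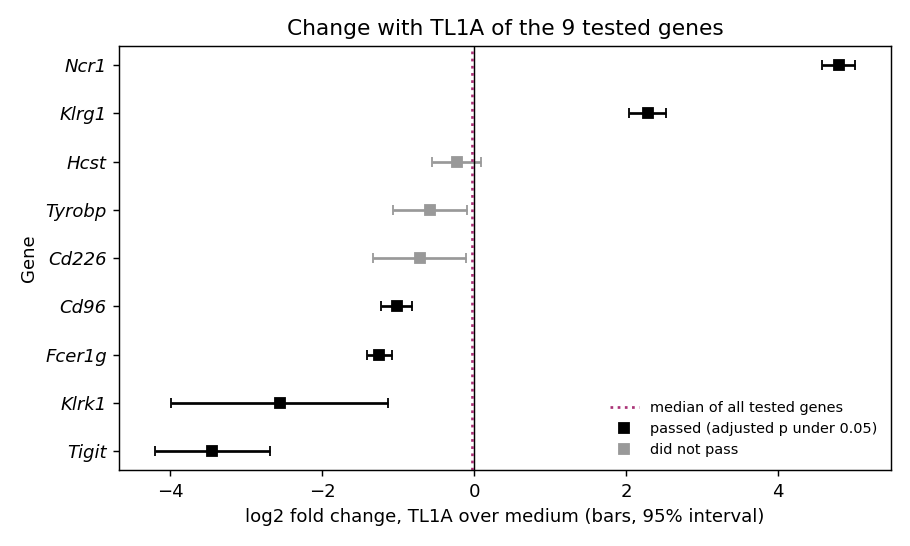
Log2 fold change of the 9 tested genes, TL1A over medium, with 95% intervals; black squares passed the edgeR test and grey squares did not, and the dotted line is the median of all tested genes at -0.03. Ncr1 (4.80) and Klrg1 (2.29) lie to the right, and Tigit (-3.44) lies farthest to the left.

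Levels were compared between genes as CPM per kilobase of transcript for the 8 genes with a single deposited row. In medium the order was Fcer1g (2433 ± 167.1, SD, n = 2), Cd96 (300.3 ± 31.2), Hcst (91.6 ± 6.16), Tyrobp (23.4 ± 3.54), Klrg1 (19.5 ± 0.235), Tigit (14.5 ± 1.10), Ncr1 (10.6 ± 0.511) and Klrd1 (0.903 ± 0.144). Tyrobp and Klrg1 were the closest neighbours in this order, with 20.9 and 25.9 against 19.4 and 19.7 in the medium libraries. With TL1A, Ncr1 stood second at 295.1 ± 9.50, between Fcer1g (1024 ± 25.4) and Cd96 (148.2 ± 0.957). Klrg1 (95.3 ± 3.49) and Hcst (78.2 ± 6.41) followed, then Tyrobp (15.6 ± 0.173) and Tigit (1.33 ± 0.553). The length-corrected ratio of Fcer1g to Ncr1 reads, which does not depend on library scaling, was 226 and 233 in the medium libraries and 3.45 and 3.49 with TL1A. The ratio of Fcer1g to Hcst was 26.6 and 26.6 in medium against 14.1 and 12.2 with TL1A, and that of Fcer1g to Tyrobp was 111 and 98.5 against 67.2 and 63.9. The ratio of Cd96 to Tigit was 18.2 and 23.5 in medium against 86.5 and 157 with TL1A. None of these ratios overlapped between the groups, and the exact two-sided permutation test gave p = 0.333 for each, the smallest p that 2 against 2 libraries allow.

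**Figure D3:**
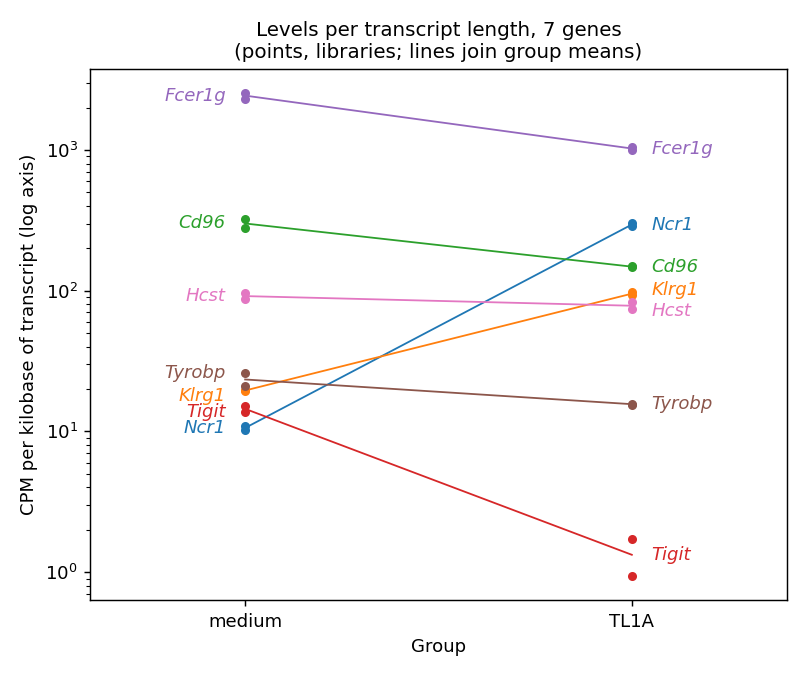
CPM per kilobase of transcript (log axis) in medium and TL1A for 7 genes with a single deposited row and reads in both groups; points are libraries and lines join group means. Fcer1g is the highest in both groups, and the Ncr1 line crosses those of Tigit, Tyrobp, Klrg1, Hcst and Cd96, from 10.6 to 295.1.

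The start regions of the genes are shown for Ncr1, which rose, and for Klrk1 and Cd96, which fell, because all carry the core letters bound by RUNX factors, and RUNX3 is known to act at Ncr1 in NK cells and innate lymphoid cells. The windows are the 250 bases before the RefSeq start on build GRCm38.p6, read 5′ to 3′ on the strand of the gene, with TGTGGT or its reverse complement in capitals. They lie at chr7:4337474-4337723 on the plus strand for Ncr1, at chr6:129623865-129624114 on the minus strand for Klrk1 and at chr16:46120249-46120498 on the minus strand for Cd96.
Ncr1: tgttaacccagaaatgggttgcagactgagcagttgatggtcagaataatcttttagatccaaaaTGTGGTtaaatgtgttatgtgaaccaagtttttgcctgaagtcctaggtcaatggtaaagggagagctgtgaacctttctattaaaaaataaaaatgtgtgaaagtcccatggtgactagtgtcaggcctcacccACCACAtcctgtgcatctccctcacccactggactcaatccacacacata
Klrk1: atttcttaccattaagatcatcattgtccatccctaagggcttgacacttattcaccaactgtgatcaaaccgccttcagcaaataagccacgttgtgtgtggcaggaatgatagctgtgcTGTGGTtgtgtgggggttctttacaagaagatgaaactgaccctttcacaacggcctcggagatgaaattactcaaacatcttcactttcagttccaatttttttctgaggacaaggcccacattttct
Cd96: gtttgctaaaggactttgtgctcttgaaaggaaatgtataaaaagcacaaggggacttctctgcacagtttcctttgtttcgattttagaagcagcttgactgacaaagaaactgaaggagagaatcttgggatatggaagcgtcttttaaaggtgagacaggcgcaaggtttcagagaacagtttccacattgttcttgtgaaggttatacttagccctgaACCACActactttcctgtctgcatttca
Ncr1 holds these letters at 2 places and the others at 1 each. Cd226 was left out of the search by name, and Klrd1, Klrg1 and Tyrobp had no window, so the counts below do not cover them. Of the 6 genes with a window read here, 4 hold TGTGGT on either strand (Ncr1, Klrk1, Cd96 and Tigit). Fcer1g and Hcst do not, while 14.0% of 32817 windows of the same length in the RefSeq table hold it. The letters thus occur in Ncr1, which rose, and in Klrk1, Cd96 and Tigit, which fell. A loose NF-κB pattern, GGG and CC with any 5 bases between them, was in 2 of the 6 (Ncr1 and Fcer1g) and in 45.8% of all windows. Of the other letters searched on both strands, CCGGAA (ETS) was in Fcer1g alone, AGGTCA (part of a nuclear receptor site) in Ncr1 alone, and TGANTCA (AP-1) and TCACACC (T-box) in none of the 6; 12.0%, 14.0%, 6.75% and 3.33% of all windows hold them. The Ncr1 match to the NF-κB pattern ends directly before 1 of its RUNX matches. A match is a description of letters only. Runx3 RNA went from 284.3 ± 7.45 to 390.9 ± 15.1 CPM (SD, n = 2, log2 fold change 0.46, SE 0.07, edgeR adjusted p = 0.00173). With scaling by assigned reads alone, the log2 fold change of Runx3 was 0.20 (edgeR adjusted p = 0.0493). Runx1 has 4 deposited rows and had 0 reads in every library, so its level was not measured. Whether RUNX factors had a part in these changes was not tested.

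The rest of the pathway moved in both directions. Among ligand genes, of 9 tested, 4 passed as higher and 1 as lower, with a median log2 fold change of 0.26. Of all tested genes, 20.6% passed as higher and 21.7% as lower. Beside Pvr, Ulbp1, which encodes a ligand of NKG2D, rose by a log2 fold change of 1.55 (SE 0.18) and Nectin1 by 1.31 (SE 0.21). H2-T23, which encodes Qa-1, the ligand of CD94 with NKG2A, rose by 0.42 (SE 0.07) but did not pass with scaling by assigned reads alone (edgeR adjusted p = 0.0779). Another NKG2D ligand gene, H60b, had 68 and 38 reads in medium against 15 and 18 with TL1A (edgeR adjusted p = 0.0301), but 0 ligand genes were lower with DESeq2, with limma-voom, and when either TL1A replicate or medium replicate 1 was left out.

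Of 34 other receptor genes in the table, 12 were tested: 4 were higher, 5 were lower and 3 did not pass (median log2 fold change -0.15). The shares over all tested genes were 20.6% higher and 21.7% lower. Klrb1b, which encodes an inhibitory NKR-P1 receptor, was abundant and fell from 1947 ± 133.6 to 720.7 ± 2.93 CPM. The checkpoint receptor gene Pdcd1 fell from 476 ± 19.0 to 84.7 ± 9.79 CPM, and Il18r1, the IL-18 receptor gene, from 439.9 ± 31.4 to 120.6 ± 2.67 CPM; the first tested of its 3 transcript rows did not pass alone (edgeR adjusted p = 0.0729). Cd244a, of the SLAM family, rose from 51.2 ± 7.24 to 194.6 ± 6.82 CPM (log2 fold change 1.93, SE 0.12). Its relative Slamf7 rose by a log2 fold change of 2.91 (SE 0.22), and Cd48, the ligand of CD244, by 0.49 (SE 0.10). Of the list, 13 genes had 0 reads in every library, among them all 7 listed Klra genes (Ly49 receptors), and reads that align to several places or are shared between rows were not assigned.

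**Figure D4:**
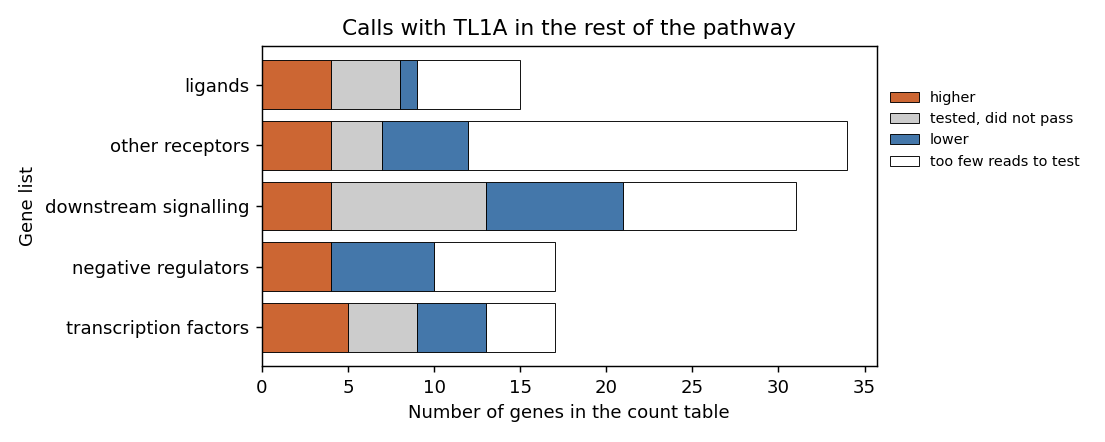
Number of genes in each of 5 gene lists that were higher, lower or did not pass with TL1A by the edgeR test, and those with too few reads to test. Higher and lower calls occur in every list, and 22 of the 34 other receptor genes had too few reads.

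Of the signalling genes downstream of the adaptors, 8 of 21 tested fell, 4 rose and 9 did not pass (median log2 fold change -0.43). Of all tested genes, 21.7% fell and 20.6% rose. The 4 that rose became 2 with the replicate number as a block, with scaling by assigned reads alone, and when either TL1A replicate or medium replicate 1 was left out. Plcg2, a phospholipase gene, fell from 395.1 ± 11.6 to 202.5 ± 12.5 CPM. Sh2d1b1, which encodes the SLAM-family adaptor EAT-2, had 310 and 341 reads in medium against 28 and 13 with TL1A (log2 fold change -3.76, SE 0.32). The small GTPase gene Rac2 rose from 1005 ± 57.8 to 4519 ± 143.8 CPM. The kinases next to the adaptors were hardly measured: Syk had 1 read in 1 library, and Zap70, with 4 rows, had 8 and 4 reads in medium against 1 and 2 with TL1A.

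Of 17 negative regulator genes in the table, 10 had enough reads to test. Among the rest, the phosphatase genes Inpp5d and Ptpn11 have several deposited rows and had 1 read or fewer in every library. All 10 tested genes passed, 4 higher and 6 lower (median log2 fold change -0.70), where 42.3% of all tested genes passed. The 6 lower became 3 with DESeq2 and when either medium replicate 1 or TL1A replicate 2 was left out. The 4 higher became 2 with scaling by assigned reads alone. Cblb, a ubiquitin ligase gene, rose from 76.9 ± 3.00 to 153.4 ± 7.09 CPM and Ubash3b, a phosphatase gene, by a log2 fold change of 1.21 (SE 0.12). Dgka, a diacylglycerol kinase gene, fell by 1.80 (SE 0.17) and the adaptor gene Dok2 by 0.79 (SE 0.15). Among transcription factors of the NK and ILC1 programme, 5 of 13 rose, 4 fell and 4 did not pass (median log2 fold change 0.37). The shares over all tested genes were 20.6% and 21.7%. Prdm1 rose from 3.71 ± 0.0513 to 21.5 ± 0.707 CPM, Id2 rose by 0.49 (SE 0.07) and Tox fell by 1.23 (SE 0.07). Tbx21, which encodes T-bet, had 23 and 11 reads in medium against 39 and 32 with TL1A (edgeR adjusted p = 0.0708), and Eomes had 0 reads in every library.

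Markers of other cell types that use these receptors were also measured, and some moved with the groups. Of all tested genes, 20.6% were higher and 21.7% lower. Of 19 ILC1 and NK cell markers, 7 were tested (4 higher, 1 lower, 2 not passing) and 8 had 0 reads in every library, Eomes among them. Of these 8, 7 have 2 or 3 deposited rows, where reads shared between rows were not assigned, so their zeros do not measure the whole gene. The summed level of the list was 99.2 and 85.8 CPM in medium and 809.8 and 784.6 CPM with TL1A, of which Ccl5 alone had 500.2 and 497.9 CPM. Klrb1c, the NK1.1 gene, had 2 reads in 1 TL1A library and 0 in the others. The summed level moved with Ncr1. The 4 called higher were Ccl5, Cd244a, Xcl1 and Gzmb. Xcl1 went from 10 and 0 reads in medium to 893 and 877 with TL1A, and Gzmb from 11 and 3 to 117 and 134. Gzma, the 1 called lower, fell from 5.86 ± 0.183 to 1.165 ± 0.0624 CPM. The part of these markers in the rise of Ncr1 was not tested. Beside the lower Fcer1g, 17 myeloid markers summed to 122.2 and 148.3 CPM in medium and 101.4 and 106.6 CPM with TL1A (2 higher, 2 lower and 5 not passing of 9 tested). Of these, Cd14 fell from 47.5 ± 2.53 to 5.22 ± 0.670 CPM, and Mpeg1, a macrophage gene, was also called lower (edgeR adjusted p = 0.0192). Cybb and Adgre1 went the other way (log2 fold changes 1.80 and 0.91, edgeR adjusted p = 0.00669 and 0.0312). Csf1r, Cd68 and Fcgr3 were among those that did not pass. With medium replicate 2 left out, 1 myeloid marker was higher and 1 lower. Of 14 mast cell and basophil markers, 10 were at 0 in every library, including the IgE receptor genes Fcer1a and Ms4a2. Ms4a2 has 4 deposited rows, so its zeros do not measure the whole gene. The list summed to 18.2 and 25.8 CPM in medium and 2.33 and 1.98 CPM with TL1A, and Cpa3, a mast cell protease gene, went from 212 and 314 reads to 2 and 0. Beside Tigit and Cd96, 11 T cell markers summed to 498.6 and 513.7 CPM in medium and 211.5 and 206.2 CPM with TL1A (0 higher, 2 lower and 3 not passing of 5 tested, or 1 higher and 1 lower with medium replicate 2 left out). In medium most of this was Cd4, which some ILC3s carry. Cd28 was the other gene called lower, with 21 and 67 reads in medium against 5 and 4 with TL1A. Cd3e reads numbered 0 and 16 in medium against 20 and 16 with TL1A, and Cd3g reads 19 and 44 against 26 and 40. Cd8a had 0 reads in every library but has 2 deposited rows, so this does not measure the whole gene. Beside Klrg1, which also marks ILC2s, the ILC2 list of 11 summed to 223.4 and 238.2 CPM in medium and 313.9 and 284.9 CPM with TL1A, Klrg1 included. Klrg1 alone went from 27.4 and 27.9 to 138.2 and 131.2 CPM, more than the rise of the sum. The rest of the list together was thus lower with TL1A. Among the 8 tested genes of the ILC2 list Klrg1 was the only one higher, while Il1rl1 and Il17rb were lower and 5 did not pass. The part of the myeloid, mast cell, T cell and ILC2 markers in these results was not tested.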

How the data were processed

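RNA-seq was deposited for 4 libraries of sorted mouse ILC3s, 2 in medium and 2 with TL1A. Per the labels' protocols, the SMARTer Ultra Low Input RNA Kit was used for cDNA. Per the submitters' processing notes, CASAVA, STAR and HTSeq were used on build mm9; their versions, the annotation and the strand setting are not named in these sources. Values were deposited as raw counts of reads for each RefSeq transcript (unit per the file headers and the whole-number values). The 5 HTSeq summary rows, 69.9% to 71.3% of each column, were left out. Reads ambiguous between rows were 33.7% to 34.0% of assigned plus ambiguous reads.

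Of 33535 rows, 33154 matched a symbol in the RefSeq table of GRCm38.p6, used for names and gene order only; 381 kept their accession. Rows were summed per gene. The exons of the 10 genes overlapped no other gene in GENCODE M21, which also gave transcript lengths; promoter windows are RefSeq's on GRCm38.p6. The test was edgeR 4.0.16 in R 4.3.3 (filterByExpr with a minimum count of 10, TMM factors of 1.09, 1.09, 0.908 and 0.921, glmQLFit, glmQLFTest, two-sided, Benjamini-Hochberg over 9852 genes, adjusted p under 0.05). CPM used TMM-scaled library sizes. The standard error is the log2 fold change divided by the square root of F. Libraries of a group differed by more than sampling noise (chi-square over its degrees of freedom 12.3 for medium and 7.98 for TL1A, genes with at least 20 reads), and all were counted as separate. The test was run on simulated counts in which all genes shared a common spread and the libraries were independent. That run cannot check the test where genes vary unequally or libraries are not independent. The upper limit from counts for Klrd1 covers counting error of the TL1A libraries only.

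Named genes were the 10 members, the 4 tested genes with the smallest p of each pathway list and the 3 genes closest to Ncr1 (Euclidean distance of log2 of CPM plus 0.01); other genes named were chosen after their values were seen. A gene named by this rule is not reported here. Listed symbols were matched as written; a few did not match. The members and lists were chosen with earlier results of these data known. Alternatives were RLE factors, no scaling factors, DESeq2 1.42.0, limma-voom (limma 3.58.1), no low-count filter, the replicate number as a block, each library left out and each row tested alone. The planned test for unequal change of rows within a gene could not be made for these genes, as 0 of the 10 had 2 tested rows.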

Additional observations from a re-analysis of the deposited data

How the results depend on the processing

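Ncr1, Klrg1, Fcer1g, Cd96 and Tigit kept their direction and passed under every alternative run, namely RLE factors, no scaling factors, DESeq2, limma-voom, no low-count filter, both replicate blocks, each library left out and each transcript row alone. No tested gene of the 10 changed direction under any of them. With scaling by assigned reads alone, 1310 genes were higher and 3475 lower, 7 of the 10 genes were lower, and the median of all genes shifted by -0.26. Klrk1 rests on few reads; its call was lost without medium replicate 1 (log2 fold change -2.50) and without TL1A replicate 2 (-1.88). With no low-count filter, 6 of the 10 genes were lower, as Klrd1 and Cd226 then passed. Leaving out 1 library gave 1596 to 1956 genes higher, 1597 to 1822 lower, and 2 higher and 3 to 5 lower among the 10; the remaining sample of a group is then assumed to vary like the other group.

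With the replicate number as a block, 1736 genes were higher and 1806 lower, and 2 of the 10 genes were higher and 4 lower. The labels do not say what the number stands for, and same-numbered libraries deviated from their group means with a correlation of -0.105. A crossed pairing, chosen after seeing the data, gave 2295 higher and 2439 lower genes, with 2 higher and 5 lower among the 10. Klrd1, Klrk1, Cd247, Syk and Zap70 rest on few reads; all but Klrd1 have several deposited rows, and whether depth or reads shared between rows set those counts was not tested.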

Other observations

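Genes next to the receptor and adaptor genes on the chromosome gave mixed values (order from the RefSeq table of GRCm38.p6; neighbours were chosen by place, up to 3 on each side, after the data were seen). Klrd1, Klrk1 and the NKG2 genes Klrc3, Klrc2 and Klrc1 lie in a row on chromosome 6. Only Klrd1 and Klrk1 of these had reads, and Gabarapl1, an autophagy gene on the other side, was lower (log2 fold change -0.59, SE 0.12, edgeR adjusted p = 0.00655). Tyrobp and Hcst are direct neighbours on chromosome 7. Nfkbid, which encodes an atypical inhibitor of NF-κB and lies next to Hcst, had 153 and 135 reads in medium against 273 and 363 with TL1A (log2 fold change 1.35, SE 0.19, edgeR adjusted p = 0.00107), whereas Hcst and Tyrobp had log2 fold changes of -0.23 and -0.58. M6pr, next to Klrg1 and the gene of a lysosomal sorting receptor, was abundant and rose by 1.59 (SE 0.06, edgeR adjusted p = 2.15e-06). Of the 3 nearest genes on each side of Ncr1, 1 was tested: Leng9 was lower (log2 fold change -0.58, SE 0.165, edgeR adjusted p = 0.0257), and the other 5 had 3 reads or fewer in every library.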
